A study of Mus musculus with 8 samples.

Results

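C1qa, C1qb, C1qc, C3, C4b, Cfb and Serping1, 7 of the 24421 genes with an entry in the tables, were followed in mouse calvarial osteoblast cultures. They were chosen by name as complement genes made by stromal cells or by macrophages, and all 7 passed the filter on low values that left 12348 genes for testing. The cells came from the skull caps of newborn mice 0 to 3 days old on a C57BL/6 background. WT cells were compared with Def6-/- cells of littermates, which carry a germline deletion of Def6 in every cell, so an effect within osteoblasts and an effect through other cells of the culture cannot be told apart. RNA was taken from both genotypes at day 0 and day 12 of culture in osteogenic medium, which held ascorbic acid at 100 µg/mL with β-glycerophosphate at 10 mM. Each of the 4 groups (WT day 0, Def6-/- day 0, WT day 12 and Def6-/- day 12) had 2 biological replicates. Values are normalized CPM, that is, the deposited CPM rescaled to the reads on genes and by TMM factors.

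Complement is a set of blood and tissue proteins that tag and attack microbes and dying cells. C1q binds to antibodies or cell debris and starts the classical pathway, in which C1r and C1s cleave C4 and C2. The lectin pathway reaches the same point through collectins, ficolins and MASP proteases, and the alternative pathway amplifies itself through factor B and factor D. All of them converge on C3, the protein whose fragments label a surface, and soluble and membrane regulators hold the cascade in check. The liver makes most of the circulating C3, macrophages and related cells make C1q, and fibroblast-like cells make several of the other components locally. C3, C4, factor B and the C1 inhibitor are also known as genes that inflammatory cytokines and interferons induce.

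All 7 genes rose over the 12 days in both genotypes, and none differed between WT and Def6-/- cells by adjusted p at either day. By limma with Benjamini-Hochberg adjustment, 7 of 7 were called higher at day 12 in WT cells, against 12.7% of all tested genes called in that direction. In Def6-/- cells 7 of 7 were also called higher, against 12% of all tested genes. C3, C4b and Cfb passed the filter through the day 12 groups alone, so their rise helped to admit them and the count of 7 is a description. Without a filter limma also called 7 of 7 in each genotype. In both genotypes each gene was higher in both day 12 libraries than in both day 0 libraries. Such a separation upward was seen in 29.3% of tested genes in WT cells and in 35.2% in Def6-/- cells.

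**Figure D1:**
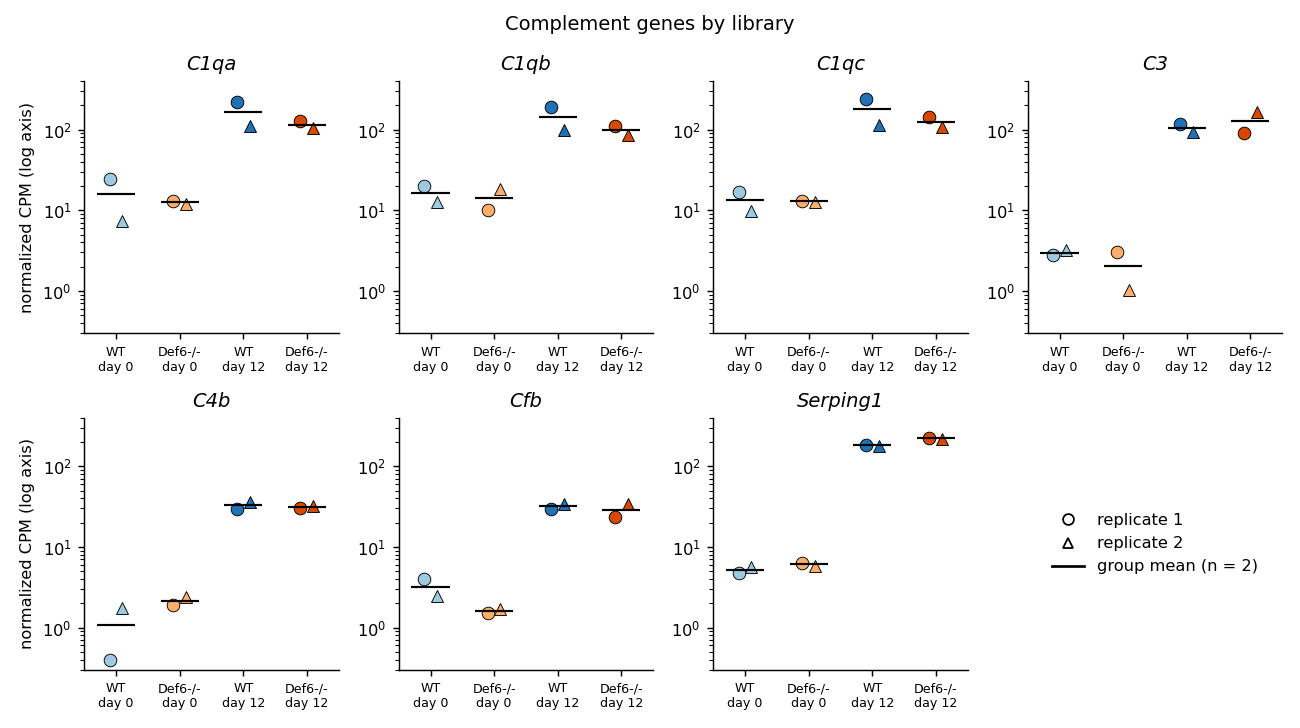
Normalized CPM of the 7 complement genes in each of the 8 libraries, on a log axis, with 1 panel per gene. The points are single libraries (2 in each group), and for every gene the 4 day 12 libraries lie above the 4 day 0 libraries.

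The libraries held 2414856 to 3482837 reads on genes. Def6 had 112 to 186 reads in the WT libraries and 0 to 2 in the Def6-/- libraries, so its counts followed the labels. The WT libraries of day 0 stood further apart than the replicates of other groups, with a chi-square per gene of 31.9 between them, against 4.28 to 11.8 in the other 3 groups. Summed stroma markers were 24748 normalized CPM in WT day 0 replicate 1 and 44653 to 51059 in the other 3 day 0 libraries. Without WT day 0 replicate 1 the log2 changes of the 7 genes over time in WT cells were 3.24 to 4.79, and with it they were 2.98 to 4.89. Over 10 osteoblast markers the summed level was 11216 to 14380 normalized CPM at day 0 and 17926 to 23440 at day 12. Most of it came from Sparc (7502 to 8447 and 13708 to 17542) and Spp1 (2528 to 6742 and 1999 to 3336). Bglap was at 0 in all day 0 libraries and 6.31 to 18.9 at day 12, and Ibsp was 0.71 to 10.3 and 650 to 2486. The sum alone therefore does not show that the day 0 cells met the osteoblast label. Hepatocyte markers (Alb, Apoa1, Ttr, Serpina1a and Fgb) were at 0 in all 8 libraries.

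The chains of C1q are encoded by C1qa, C1qb and C1qc, which lie next to each other on the minus strand of chromosome 4 in mm10. C1qb spans chr4:136880129-136886187, C1qc spans chr4:136889804-136893065 and C1qa spans chr4:136895917-136898803. Of the 7 genes, C1qb, C1qc and C3 had an entry among the RefSeq promoters (GRCm38.p6). The 250 bases before the C1qb start (chr4:136886201-136886450, minus strand, written 5′ to 3′) are shown because the macrophage factor PU.1, the product of Spi1, had one of the patterns most like that of C1q in these libraries. Capitals mark GAGGAA, the letters of an Ets site of the kind that PU.1 binds, which ended 25 bases before the start site.
C1qb promoter: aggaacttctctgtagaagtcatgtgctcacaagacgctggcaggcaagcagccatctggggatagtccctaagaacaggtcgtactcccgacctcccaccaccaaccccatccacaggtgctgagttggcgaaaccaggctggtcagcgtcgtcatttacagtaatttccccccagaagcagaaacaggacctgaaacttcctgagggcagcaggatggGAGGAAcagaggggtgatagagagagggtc
GAGGAA, searched on both strands, was found in 23.3% of 32851 promoter windows of this length, so the match is a description of the sequence and does not mark a bound site. The C1qc window, which is not shown, also held 1 match to GAGGAA. The interferon-type letters GAAANNGAA and TTCNNNGAA were not found in either window.

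C1qa was 24.1 and 7.42 normalized CPM in WT day 0 replicates 1 and 2, and 217 and 109 in the day 12 replicates. In Def6-/- cells it was 13.2 and 11.9 at day 0 and 126 and 103 at day 12. The days did not overlap in either genotype, and the highest library was WT day 12 replicate 1. The log2 fold change of C1qa was 3.42 (SE 0.48, adjusted p = 0.00181, limma) in WT cells and 3.09 (SE 0.48, adjusted p = 0.00300, limma) in Def6-/- cells. From the summed reads, the level rose 11.3-fold in WT cells (95% exact interval of the counts 9.05 to 14.4) and 9.18-fold in Def6-/- cells (7.15 to 11.95). Such intervals cover counting error only.

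C1qb was 19.7 and 12.7 normalized CPM in WT cells at day 0 and 188 and 97.6 at day 12. Def6-/- cells had 10.2 and 18.4 at day 0, then 112 and 85.4 at day 12. Again WT day 12 replicate 1 was highest and the days did not overlap. Its log2 fold change was 3.02 (SE 0.38, adjusted p = 0.00108, limma) in WT cells and 2.75 (SE 0.38, adjusted p = 0.00171, limma) in Def6-/- cells. C1qc was 16.97 and 9.89 normalized CPM in WT cells at day 0 and 242 and 115 at day 12. Def6-/- cells had 13.2 and 12.6 at day 0, then 143 and 107 at day 12. Its order of the day 12 libraries was that of the other chains, with WT replicate 1 first and Def6-/- replicate 2 last. The log2 fold change of C1qc was 3.59 (SE 0.37, adjusted p = 0.000393, limma) in WT cells and 3.17 (SE 0.37, adjusted p = 0.000739, limma) in Def6-/- cells.

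The mature C1q protein needs all 3 chains, and their RNA levels stayed in a narrow ratio at day 12. Per kb of exon, C1qa made up 35.4 to 37.2% of the summed C1q level in the 4 day 12 libraries, C1qb 29.4 to 30.9% and C1qc 33.0 to 34.7%. At day 0, where the 3 chains together had 85 to 154 reads in a library, the shares spread over 26.4 to 41.8%, 28.3 to 43.5% and 25.5 to 33.2%.

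WT day 12 replicate 1 had the highest level of both C1q and the macrophage markers, and the other 3 day 12 libraries did not share an order in them. The summed C1q level was 647 and 322 normalized CPM in WT replicates 1 and 2 and 381 and 296 in Def6-/- replicates 1 and 2. The sum of 20 macrophage markers was 6555 and 3392 normalized CPM in WT cells and 4148 and 3746 in Def6-/- cells. C1q amounted to 7.90 to 9.87% of that marker sum in the day 12 libraries and 10.5 to 16.8% in the day 0 libraries. Of the 20 markers 19 were tested, Cd163 being under the filter, and limma called 18 of them higher at day 12 in WT cells and 17 in Def6-/- cells (adjusted p under 0.05). Cx3cr1, with a log2 fold change of -0.79 in WT and -0.98 in Def6-/- cells, was not called in either. The median log2 fold change of the list was 3.25 in WT and 3.33 in Def6-/- cells, against -0.00 and 0.01 over all tested genes. Most of the marker sum came from Lyz2, the lysozyme of macrophages, at 1926 to 4049 normalized CPM at day 12. Another 9 markers of macrophages, osteoclasts and leukocytes (Acp5, Adgre1, Cd14, Csf1r, Ctsk, Fcgr3, Itgam, Itgb3 and Ptprc) did not show a rise of that size. They were not in the sum, and 49 of their deposited values were not whole reads. For Acp5, Csf1r and Fcgr3 these were the 4 day 12 values, while their day 0 values were whole reads. For Adgre1, Ctsk and Itgb3 all 8 values were not whole. The change between days in the 9 genes rests largely on values that are not read counts, so nothing is read from it. Csf1r, the receptor that macrophages need for survival, was 7.36 to 9.54 deposited CPM at day 0 and 2.76 to 7.94 at day 12. Itgam, a chain of a complement receptor, was 0.61 to 2.88 and 1.40 to 2.98 deposited CPM. Of the 9, Ctsk and Itgb3 were higher in every day 12 library than in every day 0 library, Acp5 was lower, and 6 overlapped. How these values were made is not given in the sources used here. In bulk cultures fewer cells of a type and less RNA per cell cannot be told apart, so the part of macrophage number in the C1q values was not tested.

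**Figure D2:**
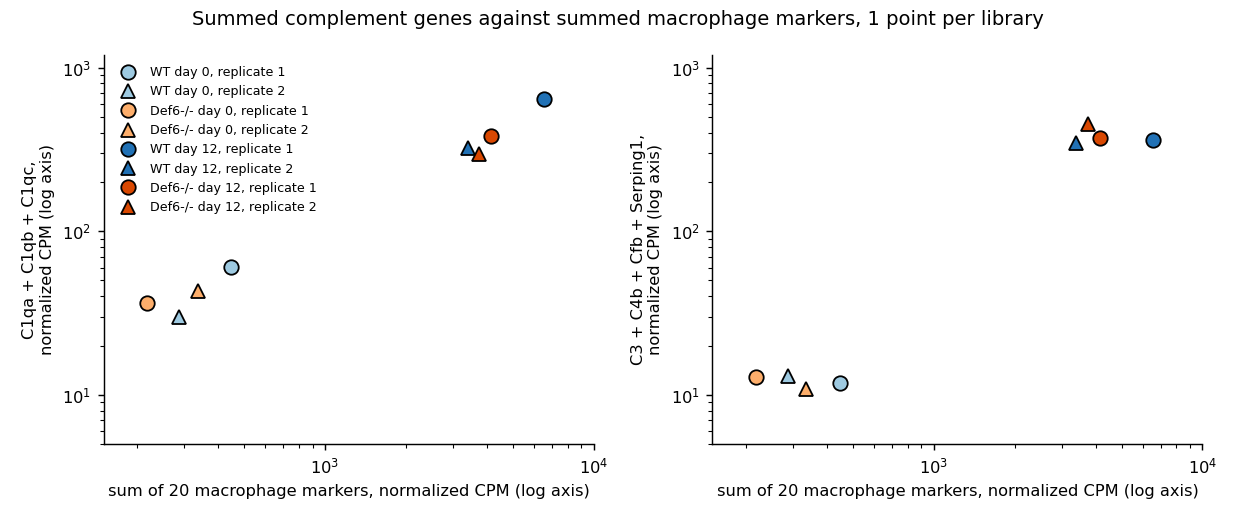
Summed normalized CPM of the C1q chains and of C3, C4b, Cfb and Serping1, plotted against the summed normalized CPM of 20 macrophage markers, on log axes with 1 point per library. WT day 12 replicate 1 has the highest macrophage sum (6555) and the highest C1q sum (647), while the summed level of the other 4 genes is 360 there and 345 to 452 in the other day 12 libraries.

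C3 is the central protein of the cascade and lies at chr17:57203970-57228136 on the minus strand. The 250 bases before its start (chr17:57228137-57228386, minus strand, RefSeq GRCm38.p6, written 5′ to 3′) are shown because C3 is a textbook target of C/EBP factors and rose here over the 12 days. Capitals mark 3 matches to TTNNGNAA, a loose form of the site of those factors, searched on both strands.
C3 promoter: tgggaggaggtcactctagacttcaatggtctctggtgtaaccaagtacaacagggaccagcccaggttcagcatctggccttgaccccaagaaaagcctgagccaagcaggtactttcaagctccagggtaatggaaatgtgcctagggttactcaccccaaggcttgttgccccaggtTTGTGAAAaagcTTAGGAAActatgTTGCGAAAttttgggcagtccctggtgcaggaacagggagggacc
The matches began 70, 58 and 45 bases before the start site and did not overlap. At least 1 such match was present in 36.8% of the promoter windows, so 1 match alone is common. The C1qc window held 1 such match and the C1qb window 0. GAGGAA, GAAANNGAA and TTCNNNGAA were not found in the C3 window. TTCNNNGAA was present in 7.02% of windows and GAAANNGAA in 7.13%.

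C3 was nearly silent at day 0, at 2.76 and 3.18 normalized CPM in WT cells and 3.01 and 1.02 in Def6-/- cells (3 to 9 reads a library). At day 12 it was 117 and 93.8 in WT cells and 90.3 and 167 in Def6-/- cells. Every day 12 library lay far above every day 0 library, and the Def6-/- replicates enclosed both WT values at day 12. The log2 fold change was 4.74 (SE 0.39, adjusted p = 0.000136, limma) in WT cells and 5.44 (SE 0.39, adjusted p = 6.61e-05, limma) in Def6-/- cells. The summed reads gave 36.1-fold in WT cells (exact counting interval 22.0 to 63.5) and 65.0-fold in Def6-/- cells (36.1 to 131). The log2 scale carries a pseudocount of 1 and understates the change of genes this low at day 0.

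C4b encodes C4, the protein that C1s cleaves, and Cfb encodes factor B, the protease of the alternative pathway. Both lie on the minus strand of chromosome 17, in the class III part of the major histocompatibility complex, at chr17:34728380-34743882 and chr17:34856374-34862518. C4b was 0.39 and 1.77 normalized CPM in WT cells at day 0, from 1 and 5 reads, and 1.88 and 2.38 in Def6-/- cells. At day 12 it was 29.3 and 36.4 in WT cells and 30.0 and 32.0 in Def6-/- cells, with the Def6-/- values inside the WT range. Its log2 fold change was 4.10 (SE 0.37, adjusted p = 0.000194, limma) in WT cells and 3.36 (SE 0.37, adjusted p = 0.000535, limma) in Def6-/- cells. With so few reads at day 0, the summed reads gave 28.8-fold in WT cells with a wide exact counting interval of 13.0 to 79.4, and 14.4-fold (8.02 to 28.6) in Def6-/- cells. Of the 50-base words in C4b exons 34.6% also occur in its neighbour C4a, where reads may not be assigned to either gene, and C4a itself had 7 reads over all 8 libraries.

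Cfb was 3.95 and 2.47 normalized CPM in WT cells at day 0 and 29.3 and 34.3 at day 12. Def6-/- cells had 1.50 and 1.70 at day 0, then 23.8 and 33.7 at day 12. The Def6-/- libraries were below the WT libraries at day 0 and overlapped them at day 12. Its log2 fold change was 2.98 (SE 0.31, adjusted p = 0.000432, limma) in WT cells and 3.50 (SE 0.31, adjusted p = 0.000198, limma) in Def6-/- cells. The summed reads gave 9.89-fold in WT cells (exact counting interval 6.01 to 17.3) and 17.8-fold (9.12 to 39.8) in Def6-/- cells.

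Serping1 encodes the C1 inhibitor, which inactivates C1r, C1s and the MASP proteases, and lies at chr2:84765387-84775444 on the minus strand. It was 4.74 and 5.65 normalized CPM in WT cells at day 0 and 185 and 181 at day 12. Def6-/- cells had 6.40 and 5.79 at day 0, then 226 and 219 at day 12. The replicates lay close together in every group, and at each day the Def6-/- pair lay above the WT pair. At day 0 Serping1 had only 12 to 17 reads a library, and the pairs were parted by 5.65 against 5.79 normalized CPM. Its log2 fold change was 4.89 in WT cells (SE 0.20, adjusted p = 1.22e-05, limma) and 4.98 (SE 0.20, adjusted p = 1.05e-05, limma) in Def6-/- cells. From the summed reads this was 35.1-fold (exact counting interval 24.1 to 53.0) and 36.7-fold (26.1 to 53.2).

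The 4 genes C3, C4b, Cfb and Serping1 did not share the high value of WT day 12 replicate 1. Between the WT day 12 libraries the higher value was 1.99, 1.93 and 2.10 times the lower for C1qa, C1qb and C1qc, but 1.25 times for C3, 1.24 times for C4b, 1.17 times for Cfb and 1.02 times for Serping1. In Def6-/- cells C3 was the widest at 1.85 times. Beside these 4 genes, the summed level of 10 fibroblast and stroma markers was 67109 to 88105 normalized CPM at day 12, and 24748 to 51059 at day 0. Col1a1 alone made up 44118 to 63689 of it at day 12 and was not called in either genotype (adjusted p = 0.0505 in WT and 0.0803 in Def6-/- cells, limma). Of the 10 markers limma called 6 higher in WT and 5 in Def6-/- cells, Dcn and Lum with log2 changes above 3 among them, while Fn1 (-0.63 and -0.97), Pdgfrb and Prrx1 were not called. Adipocyte markers (5 genes) summed to 32.0 to 39.9 normalized CPM at day 0 and 295 to 414 at day 12. Most of that sum came from Lpl (30.5 to 37.5 and 278 to 368), while Adipoq was at 0 at day 0 and 2.30 to 12.8 at day 12. Endothelial markers (6 genes, with Emcn and Tie1 at 0) summed to 0.79 to 5.45 and 10.9 to 13.1. The part of these cell types in the rise of the 4 genes was not tested.

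Per kb of exon, the order of the levels differed between the days. At day 12 in WT cells C1qa had 157 normalized CPM per kb, C1qc 148 and C1qb 131, followed by Serping1 with 90.9. C3 had 20.5, Cfb 11.6 and C4b 6.11 normalized CPM per kb. Within each of the 4 day 12 libraries the chains kept the order C1qa, C1qc, C1qb, although the level of each differed by 1.93 to 2.10 times between the WT replicates. Serping1 in Def6-/- cells, at 111 normalized CPM per kb, stood level with C1qa at 110 and C1qc at 104. At day 0 the chains had 10.7 to 15.1 normalized CPM per kb over both genotypes, Serping1 2.58 in WT and 3.03 in Def6-/- cells, and C3, C4b and Cfb at most 1.17.

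Another 41 complement genes of a list set by role were counted in the same fit. Of these, 17 passed the filter and 24 did not, and 9 of the latter (Mbl1, Mbl2, Fcnb, C7, C8a, C8b, C9, Cd55b and Cr2) had no read in any library. By limma 9 of the 17 were called higher at day 12 and 0 lower in WT cells (adjusted p under 0.05), against 12.7% and 5.63% of all tested genes. In Def6-/- cells 11 were called higher and 1 lower, against 12% and 4.79%. C2, Fcna and Cfd, 3 of the 17, passed the filter through day 12 groups alone. The median log2 change of the 17 genes was 2.06 in WT and 1.95 in Def6-/- cells.

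In the classical pathway C1ra and C1s1, the proteases that act with C1q, and C2, which they cleave, rose in both genotypes. C1ra rose by 2.18 (log2) in WT and 2.56 in Def6-/- cells, C1s1 by 2.45 and 2.80, and C2 by 2.91 and 2.57. C2 was 19.2 and 24.3 normalized CPM in WT cells at day 12 and 17.7 and 6.83 in Def6-/- cells, so its lowest day 12 value came from 1 library. C1rb, C1s2 and C4a, close copies of C1ra, C1s1 and C4b, were under the filter, and 48.0% of the 50-base words in C1ra and 21.8% of those in C1s1 also occur in the copy.

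In the lectin pathway 4 of 8 genes were tested. Fcna, a ficolin of macrophages, rose by 2.28 (log2) in WT and 2.46 in Def6-/- cells, from at most 1.41 normalized CPM at day 0. Masp1, a protease of this pathway, was the single gene of the list called lower over time. It was 42.2 and 84.4 normalized CPM in WT cells at day 0 and 27.8 and 29.3 at day 12, and 64.7 and 71.5 against 33.7 and 20.1 in Def6-/- cells. Its log2 change was -1.35 in Def6-/- cells, where limma called it, and -1.04 in WT cells, where it was not called (adjusted p = 0.0706, limma). The interaction term of Masp1 was -0.31 and was not called. Colec10 and Masp2 were not called in either genotype.

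Cfp, the properdin that stabilises the alternative pathway convertase, rose by 2.19 (log2) in WT and 1.81 in Def6-/- cells. Cfd, which encodes factor D and is made by fat cells, had no read in any day 0 library. At day 12 it had 2 and 1 reads in WT cells and 8 and 15 in Def6-/- cells. Of the terminal components, which form the membrane attack complex, 0 of 7 passed the filter. C8g, whose product is a subunit of that complex, had the most reads of them, at 0 to 2 a library at day 0 and 5 to 9 at day 12.

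Clu, which encodes clusterin, an inhibitor of the terminal complex, rose by 2.57 (log2) in WT and 3.25 in Def6-/- cells. Cd59a, a membrane inhibitor of that complex, was called in Def6-/- cells (log2 1.04) and not in WT cells (0.23). Its interaction term was 0.81 and was not called by limma, so its change was not shown to differ between the genotypes. Among the receptors, C3ar1 rose by 2.06 and 1.95 in WT and Def6-/- cells, Cd93 by 2.58 and 2.68, and Itgb2, the shared chain of the complement receptors of leukocytes, by 2.92 and 3.01. C5ar1 was not called in either genotype.

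**Figure D3:**
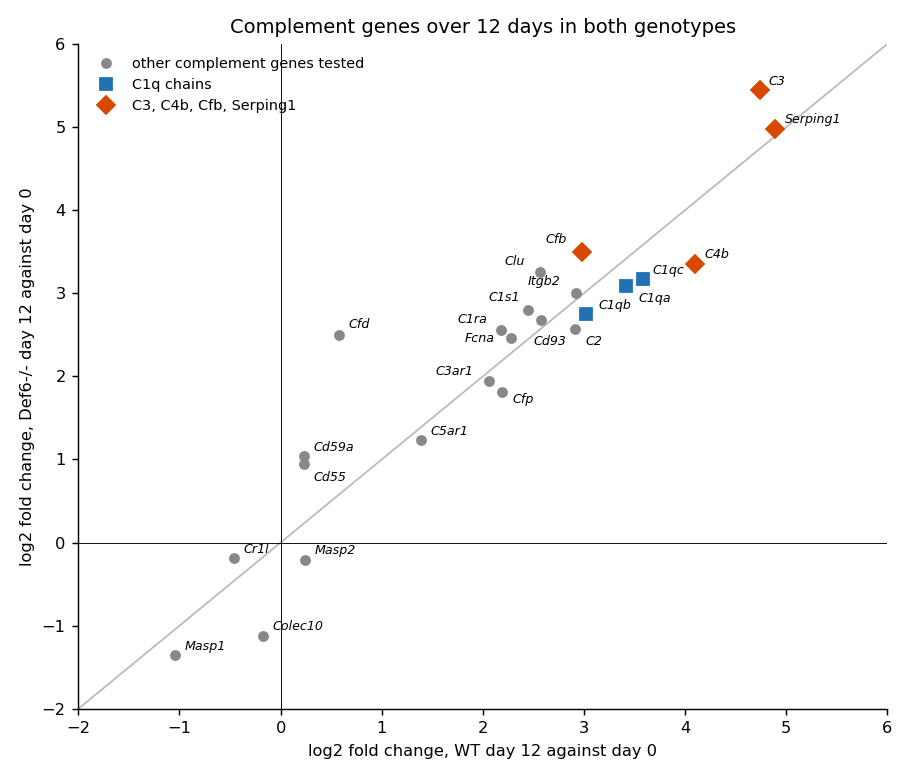
log2 fold change at day 12 against day 0 in WT cells (horizontal) and in Def6-/- cells (vertical) for the 7 genes and the 17 other complement genes tested. The diagonal marks equal change. All 7 genes lie between 2.75 and 5.44, and Masp1 lies at the lower left.

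Def6-/- and WT cells were then compared at each day. At day 12 limma called 0 of the 7 genes (adjusted p under 0.05), with 0 at an unadjusted p under 0.05 by limma, edgeR or DESeq2. The background was low, since 0.0081% of tested genes were called by adjusted p and 1.4% passed an unadjusted p under 0.05 with a change over 1.2-fold. The log2 differences of the C1q chains were -0.43 for C1qa (95% interval -1.53 to 0.67), -0.47 for C1qb (-1.34 to 0.41) and -0.43 for C1qc (-1.27 to 0.41). They depended on single libraries, and without WT day 12 replicate 1 they were 0.058, -0.0029 and 0.099. With 1 other library left out they went down to -0.92, -0.94 and -0.96, the last without WT day 12 replicate 2. For the other genes the differences were 0.23 for C3 (-0.67 to 1.12), -0.07 for C4b (-0.90 to 0.76), -0.16 for Cfb (-0.86 to 0.55) and 0.28 for Serping1 (-0.16 to 0.73). The interval was widest for C1qa and narrowest for Serping1. Serping1 was the single gene of the 7 whose genotypes did not overlap at day 12, being higher in both Def6-/- libraries, as were 16.8% of all tested genes.

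**Figure D4:**
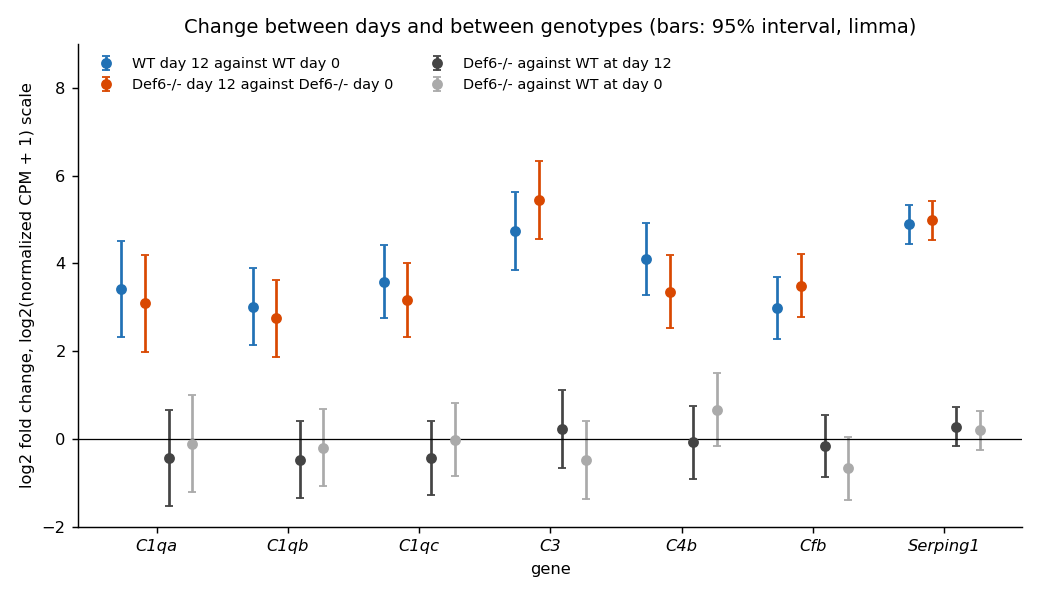
log2 differences of the 7 genes with 95% intervals from limma, for day 12 against day 0 in each genotype and for Def6-/- against WT cells at each day. The changes over time all lie above 0 with their intervals, while every interval of a genotype difference includes 0.

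At day 0 limma again called 0 of the 7 genes (adjusted p under 0.05), and 0 passed an unadjusted p under 0.05 by limma, edgeR or DESeq2. Of all tested genes 0.0081% were called and 2.3% passed the unadjusted p and fold. Cfb came nearest, with a log2 difference of -0.67 (95% interval -1.38 to 0.04, adjusted p = 0.908, limma), and its libraries did not overlap. C4b differed by 0.67 (-0.16 to 1.50) and Serping1 by 0.20 (-0.25 to 0.65), both without overlap and higher in Def6-/- cells. Groups that did not overlap made up 10.9% of tested genes upward and 11.7% downward at this day. C4b rests on 1 to 7 reads a library here, and without WT day 0 replicate 2 its difference was 1.16 (adjusted p = 0.0262, limma), in a fit that called 2944 genes in all. The log2 differences of C1qa, C1qb, C1qc and C3 were -0.10, -0.20, -0.01 and -0.48, with overlapping libraries. Those of the C1q chains turned to 0.68, 0.10 and 0.35 without WT day 0 replicate 1, and that of C1qa was -0.89 without WT day 0 replicate 2.

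The rise over 12 days was not shown to differ between the genotypes for any of the 7 genes. The interaction term was 0.71 for C3 (95% interval -0.56 to 1.97), -0.74 for C4b (-1.92 to 0.43) and 0.52 for Cfb (-0.49 to 1.52). For C1qa, C1qb, C1qc and Serping1 it was -0.33, -0.27, -0.42 and 0.09. No interaction was called by limma (0 of 7, adjusted p under 0.05), and 0 of 7 had an unadjusted p under 0.05 by limma, edgeR or DESeq2. The background share called was 0% by adjusted p and 1.12% by unadjusted p and fold.

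Of the 17 other complement genes limma called 0 between the genotypes by adjusted p at either day. At an unadjusted p under 0.05 limma found 1 at day 12 and 2 at day 0, and edgeR and DESeq2 found 1 at each day. The limma gene at day 12 was Cfd, with the reads given above. It passed the filter through the Def6-/- day 12 group alone, the group where it was high, so nothing is read from that p. It stood beside an adipocyte marker sum of 295 and 311 normalized CPM in WT cells and 409 and 414 in Def6-/- cells, most of it Lpl. Adipoq was 2.30 and 2.51 in WT cells and 7.39 and 12.8 in Def6-/- cells, and Plin1 was 3.44 and 2.93 against 10.7 and 15.4. By adjusted p limma called 0 of the 4 adipocyte markers tested between the genotypes at day 12. Counted by unadjusted p and fold, 3 of them were higher in Def6-/- cells, against 1.4% of all tested genes in either direction. The limma genes at day 0 were Clu, at 35.5 and 38.9 normalized CPM in WT cells against 21.1 and 21.5 in Def6-/- cells, and Cd59a, at 11.8 and 9.54 against 7.52 and 5.45. At day 12 the log2 difference of Clu was -0.09. Its interaction term was 0.68 and was not called by limma, so the difference was not shown to depend on the day.

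C4b, Cfb and C2 lie 6.50, 6.63 and 6.63 Mb beyond the end of Def6 on chromosome 17, and C3 lies 29.0 Mb beyond it. Within 20 Mb of Def6, 15 of 384 tested genes (3.91%) passed the unadjusted p and fold between the genotypes at day 12, against 1.30% elsewhere. At day 0 these were 23 genes (5.99%) against 2.19%. Neither C4b, Cfb nor C2 was among them. Sequence linked to the deleted locus and the loss of Def6 cannot be told apart for genes of this region.

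Genes known to respond to interferon were followed beside the 7, since several complement genes are also interferon-induced. Over 10 such genes the summed level was 68.5 to 146 normalized CPM at day 0. By limma 10 of 10 were called higher at day 12 in WT cells and 8 in Def6-/- cells. The shares of all tested genes were 12.7% and 12%. The median log2 changes of the list were 2.93 and 2.62. At day 12 the sum was 668 and 1060 normalized CPM in WT cells and 419 and 418 in Def6-/- cells. Both Def6-/- libraries were lower. By adjusted p 0 of the 10 were called between the genotypes at that day. By unadjusted p and fold 5 were lower, against 1.4% of all tested genes in either direction. At the same day the mean of Serping1 was 183 ± 2.58 in WT and 223 ± 4.81 in Def6-/- cells (SD, n = 2), and that of C3 was 105 ± 16.5 and 129 ± 54.2. C4b had 32.9 ± 5.06 and 31.0 ± 1.45, and Cfb 31.8 ± 3.58 and 28.8 ± 7.01. The interferon sum was highest in WT replicate 2, as were C4b (36.4) and Cfb (34.3). Cfb was nearly as high in Def6-/- replicate 2 (33.7), where the interferon sum was 418. C3 and Serping1 were highest in a Def6-/- library. The part of interferon-responsive genes in these values was not tested. Of 10 acute phase and NF-kB genes 6 were tested. Limma called Cp and Hp, which encode ceruloplasmin and haptoglobin, higher at day 12 in both genotypes. Saa3, Nfkbia, Tnfaip3 and Ccl2 were not called over time in either genotype. Lcn2, Il6, Cxcl1 and Il1b were under the filter.

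Genes with profiles most like those of the 7 were named by Pearson's r over the 8 libraries, among 9593 genes with a mean of at least 10 normalized CPM. The libraries fall into a day 0 and a day 12 cluster, so an r near 1 is common, and it is given as a description. For the mean of the C1q chains these genes were Trem2 (r = 0.997), Spi1 (0.997), Ctsb (0.996), Lgmn (0.995) and 4930404N11Rik (0.994). Trem2 is a receptor and Spi1 a transcription factor of macrophages, and Ctsb and Lgmn are lysosomal proteases. Trem2 was 98.2 normalized CPM in WT day 12 replicate 1 and 42.7 to 53.6 in the other day 12 libraries, the same standing apart as in C1q. An r above 0.9 with C1q was shared by 8.94% of the genes.

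Serping1 was closest to Egfl6, Gdf10, Fxyd1, Shisa2 and Gpm6b, all with an r of 0.998 to 0.999, and C4b to Scarf2, Tril, Gxylt2, Dmpk and Efs, with an r of 0.996 to 0.998. Cfb was closest to Il11ra1, Penk, Mdk, Tpst1 and Usp21 (0.992 to 0.997), and C3 to 1190002N15Rik, Rarres2, Rin2, Fmo1 and Ednra (0.993 to 0.996). Il11ra1 is the receptor chain for interleukin 11, Penk encodes proenkephalin, Rarres2 encodes chemerin and Ednra is an endothelin receptor. An r above 0.9 was shared by 9.72 to 11.1% of the genes for these 4. No gene appeared in more than 1 of the 5 lists.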

How the data were processed

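Poly-A RNA was sequenced from 8 libraries of calvarial osteoblasts, 2 in each of 4 groups taken from the labels. The authors trimmed reads with fastp, aligned them with HISAT2 to mm10, made gene counts with HTSeq and, with edgeR, the CPM values that were deposited. Each deposited CPM value was a whole multiple of 1 read in its library for 99.957% of 114821 values (tolerance 0.01 reads). The 49 exceptions lay in 9 macrophage, osteoclast and leukocyte markers, which were left out of the marker sums. The value of 1 read was 0.101 to 0.140 CPM, and 64.7 to 71.2% of reads stood in rows that name no gene and were left out.

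CPM was divided by the sum over gene rows and by TMM factors (edgeR 4.0.16), and log2(normalized CPM + 1) was fitted with limma 3.58.1 (4 group means, all 8 libraries, trend in the variance). The filter kept 12348 genes whose group mean of deposited CPM reached 1 in 1 or more groups. Calls were made at a Benjamini-Hochberg adjusted p under 0.05 over all of them. An unadjusted p under 0.05 with a change over 1.2-fold, the rule of the study, was counted beside it. Alternatives were other pseudocounts, filters and scalings, no variance trend, a fit of the 2 groups compared alone, edgeR and DESeq2 1.42.0 on the recovered reads, the replicate number as a block, and leaving out each library. The limma step was also run on simulated counts with the same dispersion in all groups. The groups here differ in spread, so nothing is read from that run. With 2 libraries against 2, an exact permutation test of a single value cannot give a p below 0.333, so none was used. No separate batches are named in the labels.

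The 7 genes, the complement list by role, the marker lists and the searched motifs were chosen with earlier results of these data known. The text names the 7 genes in every comparison, list genes called in at least 1 comparison or lying under the filter, and the 5 genes most correlated with each profile, after leaving out 12 macrophage and osteoclast markers of the study. C5ar1, Colec10, Masp2 and C8g were named outside that rule after their values were seen. Positions and exon lengths are from GENCODE M21 (GRCm38, the same assembly as mm10). Some complement genes are not reported here.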

Additional observations from a re-analysis of the deposited data

How the results depend on the processing

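The comparisons were recomputed under 20 alternatives, the interaction under 19, and C3, C4b and Cfb at day 0 were under the filter with the 2 groups alone. The rise of all 7 genes over 12 days kept its direction and its call in both genotypes under all 20. The unblocked fit was used because the replicate numbers are not stated to pair samples. Deviations of same-numbered libraries correlated at 0.0023 to 0.327 over the pairs of groups. With the replicate block 7 of the 7 genes were called over time in each genotype and 0 between genotypes, the all-gene calls moved from 2260 to 2553 in WT and from 2076 to 2281 in Def6-/- cells, and no call on the 7 genes changed.

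A fit of the 2 groups compared alone called 1086 genes over time in WT cells and 3913 in Def6-/- cells. Leaving out 1 library gave 838 to 5693 genes in WT cells and 927 to 4331 in Def6-/- cells, of which all 7 were part. Between genotypes at day 12, 1 gene was called by adjusted p, 0 with a pseudocount of 0.1, 3 with the 2 groups alone and 0 to 3 with 1 library left out. The 173 genes past the unadjusted p and fold at that day became 450 without a filter, 73 with a filter at a mean of 5 CPM, 291 without a variance trend, 85 by DESeq2, 560 with the 2 groups alone and 108 to 457 with 1 library left out. Among the 7 genes, 1 passed that rule with the 2 groups alone (Serping1, 0.28), and 0 to 1 with 1 library left out (C1qc, -0.96, without WT day 12 replicate 2).

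At day 0, 1 gene was called by adjusted p, 0 with the 2 groups alone, and 1 to 2944 with 1 library left out, the most without WT day 0 replicate 2. That fit called 1 of the 7 genes (C4b) and 2 of the other complement genes, and those counts ranged over 0 to 1 and 0 to 2. The 284 genes past the unadjusted p and fold became 443 without a filter, 163 with the filter at 5 CPM, 59 with the 2 groups alone and 154 to 4575 with 1 library left out. Of the 7 genes 1 passed that rule with a pseudocount of 0.1, 1 with 0.5 and 1 without a trend (Cfb each time, -0.92, -0.79 and -0.67), and 0 to 3 with 1 library left out. For the interaction 138 genes became 335 without a filter, 58 with the filter at 5 CPM, 232 without a trend, 45 by DESeq2 and 89 to 3332 with 1 library left out. Leaving out 1 library also gave 0 to 1282 interaction calls by adjusted p, and 0 to 1 of the 7 genes past the unadjusted rule.

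No genotype difference that changed direction was called. At day 12, with 1 library left out, C1qa ranged from -0.92 to 0.058, C1qc from -0.96 to 0.099, C3 from -0.21 to 0.67, C4b from -0.23 to 0.079 and Cfb from -0.40 to 0.086. At day 0 C1qa ranged from -0.89 to 0.68, C1qb from -0.60 to 0.20, C1qc from -0.37 to 0.35 and C3 from -0.97 to 0.016. C1qc was 0.012 without a filter, 0.11 with CPM as deposited, 0.024 without TMM factors and 0.0042 with the 2 groups alone, and C1qa was 0.018 with CPM as deposited. The interaction ranged from -1.12 to 0.46 for C1qa, -0.74 to 0.17 for C1qb, -0.95 to 0.089 for C1qc and -0.020 to 0.19 for Serping1. The cause of these turns was not tested. With 1 library left in a group, its spread is taken from the other groups. The median of all genes moved by 0.12 (log2) between genotypes at day 0 with CPM as deposited, about as much as C1qa and C1qc there, and by -0.11 over time in Def6-/- cells without TMM factors. Other scalings moved it by less than 0.1. The 1 to 10 reads of C3, C4b and Cfb at day 0 limit the precision of their folds.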
